A study of Mus musculus with 9 samples.

Results

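Mouse embryonic stem cells that lack Nanog and carry added Esrrb and added Nanog (the Esrrb+Nanog line) were compared with cells that lack Nanog and carry neither (the Nanog-null line, the reference), across all autosomal genes. The comparison was set by the sample titles and takes 6 of the 9 samples, 3 libraries per line. The Nanog-null line is titled NanogKO (44C6) and labelled with the genotype N{delta}. The Esrrb+Nanog line is titled NanogKO:Esrrb:Nanog (44JN) and labelled N{delta}:cE:iN. A line with added Esrrb alone (NanogKO:Esrrb, 44J), which the labels give the same genotype N{delta}:cE:iN, supplied the other 3 samples. All 3 lines therefore share the loss of Nanog, received no treatment, and were kept in medium with serum and leukaemia inhibitory factor (LIF), a cytokine that keeps mouse stem cells undifferentiated. Cells that displayed the adhesion molecule PECAM and lacked PDGFRA, a receptor of primitive endoderm, were sorted before RNA was isolated.

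Each group is 1 line, so the added genes and the line that carries them cannot be told apart. The labels do not say what drives the added genes, when they were switched on, or whether replicates were separate cultures, so each p-value reflects the spread among these libraries, which may be technical. Library totals ran from 21808120 to 32496267 counts, a median of 95.8% of them on autosomal genes. The table lists 48182 autosomal genes, of which 17396 had no count in any of the 9 libraries and 15585 passed the low-count filter and were tested. Genes of the X and Y chromosomes and the mitochondrion were left aside. Levels are counts scaled to library size (CPM, also scaled between libraries by the trimmed mean of M values) and follow gene length, so they were compared between lines and not between genes.

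Nanog is a homeodomain factor and Esrrb an orphan nuclear receptor, and each sustains self-renewal of mouse embryonic stem cells. Esrrb is a direct target of Nanog and can replace it in holding cells undifferentiated, and both bind enhancers together with Oct4 (encoded by Pou5f1) and Sox2. The naive state that these factors support resembles the epiblast of the blastocyst. Cells leave it through a formative state, marked by factors such as Otx2, before they commit to a lineage.

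The altered genes matched the titles in every library. Nanog (ENSMUSG00000012396, chromosome 6, 122707489 to 122714633, mm10) measured 14.3, 14.3 and 16 CPM in the Nanog-null line against 221, 289 and 332 CPM with Esrrb and Nanog added. The groups did not overlap, and the log2 change was 4.24 ± 0.14 (SE, adjusted p = 2.58e-09, edgeR's quasi-likelihood test with Benjamini-Hochberg adjustment over all tested genes, as for every adjusted p below). The sources used here do not give the deleted segment of Nanog, so reads left in the Nanog-null line do not test the deletion. Esrrb (ENSMUSG00000021255, chromosome 12, 86361117 to 86521628) had 273, 253 and 303 CPM in the 3 reference libraries, and 1112, 1149.8 and 1055 CPM once both genes were added. Its log2 change was 2.001 ± 0.11, and its level in the Esrrb line, 802 ± 132 CPM (SD, n = 3), was lower than in the Esrrb+Nanog line by a log2 difference of 0.46 (adjusted p = 0.0133).

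The stem cell markers fixed for this comparison were present at high levels in both lines. Pou5f1 rose from 577 ± 7.5 to 717 ± 71.2 CPM and the co-receptor gene Tdgf1 from 277 ± 28.7 to 550.1 ± 12.1 CPM (SD, n = 3 per line, here and below). Zfp42, a zinc finger marker of naive cells also called Rex1, rose from 349 ± 37.9 to 724 ± 22.3 CPM. Sox2 fell from 766 ± 46.8 to 619.7 ± 46.5 CPM, and Sall4, a zinc finger partner of Oct4, was at 439.9 ± 15.3 and 459 ± 27.4 CPM with no call (adjusted p = 0.431). The sorting marker Pecam1 read 99.2, 93.4 and 110.4 CPM in the reference libraries, against 46.4, 48.7 and 54.2 CPM in those of the Esrrb+Nanog line. The sorted cells of the Esrrb+Nanog line thus held less of its transcript (log2 change -1.02 ± 0.10, adjusted p = 9.38e-06). Pdgfra, the marker sorted against, was at 2.29 ± 2.0 and 2.9 ± 1.05 CPM and was not called (adjusted p = 0.66), while it reached 10.4 ± 4.22 CPM in the Esrrb line.

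Most of the tested genes differed between the 2 lines, in both directions. Of 15585 autosomal genes, 8466 (54.3%) passed an adjusted p of 0.05, 4284 higher in the Esrrb+Nanog line (27.5%) and 4182 lower (26.8%). Many of the differences were small: 3744 of the calls were under 1.5-fold, and the median size of a called log2 change was 0.67. Changes over 2-fold were called for 1276 genes higher (8.19%) and 1589 lower (10.2%), and changes over 16-fold for 99 higher and 91 lower. The median log2 change of all tested genes was 0.0074, so the scaling left no common shift. The replicates of the 2 lines did not overlap for 4918 genes that were higher (31.6%) and 4726 that were lower (30.3%).

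How often a gene was called followed its depth. Among genes that averaged under 1 CPM 37.2% were called, with a median change of 3.40-fold, against 57.8% of genes over 100 CPM, with a median of 1.27-fold. Genes of 10 to 100 CPM were called in 59.9% of cases at a median of 1.41-fold. A change of the same size was therefore less often detectable in a gene of low level. The low-count cutoff, 0.374 CPM, was not reached in all 3 Nanog-null libraries by 1450 tested genes and not in all 3 Esrrb+Nanog libraries by 1430, and such genes passed the filter only with the help of other lines. Members of 36 gene lists with 618 entries were then counted, of which 503 distinct genes were tested. Their counts are to be read against 27.5% higher and 26.8% lower, since a list with such shares does not stand out from the rest.

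**Figure D1:**
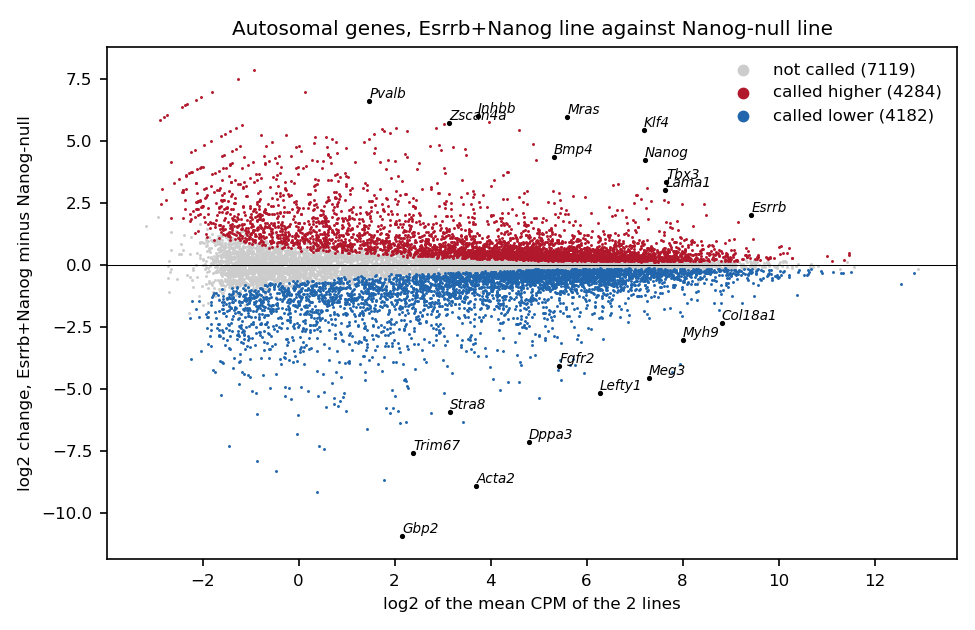
Log2 change of each tested autosomal gene (vertical axis, Esrrb+Nanog minus Nanog-null) against the log2 of its mean CPM in the 2 lines (horizontal axis). Each point is a gene, with 4284 called higher in red, 4182 called lower in blue and 7119 not called in grey; named genes are in black. Large changes in both directions lie mainly at low levels, and Klf4, Mras, Nanog, Lefty1 and Meg3 combine a large change with a high level.

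The third line shows where a combined difference was already present with Esrrb alone. The Esrrb line differed from the Nanog-null line in 48.5% of the tested autosomal genes (24.5% higher, 24.1% lower). The Esrrb+Nanog line differed from the Esrrb line in 2030 genes (5.55% higher, 7.48% lower), which is the test of whether a gene's combined difference departs from that of the Esrrb line. All comparisons share libraries, so levels of the 3 lines are set side by side below for some of the genes named, in part with that test. For the others only the Nanog-null and Esrrb+Nanog levels are given, and their difference may already be present with Esrrb alone. Among these, Amotl1 and Axin2 were not called between the Esrrb+Nanog and Esrrb lines (adjusted p = 0.975 and 0.902), while Ccn2 and Car4 were (0.000137 and 0.000958). The first principal component of the autosomal genes held 70.8% of the variance and put the 3 Nanog-null libraries on one side and the other 6 on the other. The second held 11.9% and separated the Esrrb from the Esrrb+Nanog libraries.

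Naive pluripotency factors rose in the Esrrb+Nanog line. Of 20 tested members, 17 were higher and 3 were lower, with a median log2 change of 1.16, against 27.5% and 26.8% of all genes and a median of 0.0074. Klf4 (ENSMUSG00000003032, chromosome 4, 55527143 to 55532466), a Krüppel-like factor used to reprogram somatic cells, measured 5.79, 7.43 and 6.72 CPM in the Nanog-null line against 304, 287 and 271 CPM with Esrrb and Nanog added. Its log2 change of 5.43 ± 0.20 (adjusted p = 4.30e-09) was the largest increase of the list, and the level in the Esrrb line, 127 ± 37.7 CPM, lay between the others (log2 difference to the Esrrb+Nanog line 1.18, adjusted p = 0.000708). Tbx3, a T-box factor that maintains self-renewal, had 25.4, 36.7 and 45.9 CPM in the 3 reference libraries, and 378, 367 and 362 CPM once both genes were added. Jam2, an adhesion gene of naive cells, and Zfp57, which protects imprints, showed the same separation, at 43.8 ± 6.38 to 354 ± 31 CPM and 107 ± 11.9 to 586 ± 47.4 CPM.

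Tbx3, Jam2 and Zfp57 were high in the Esrrb line too, at 329 ± 65.5, 326 ± 8.42 and 568 ± 2.69 CPM. Tfcp2l1, a CP2 family factor downstream of LIF, was at 266 ± 26.7, 886 ± 134 and 882 ± 49 CPM across the Nanog-null, the Esrrb and the Esrrb+Nanog lines. The log2 difference between the Esrrb+Nanog and Esrrb lines was 0.16 ± 0.17 (SE) for Tbx3, 0.12 ± 0.094 for Jam2, 0.046 ± 0.081 for Zfp57 and -0.0077 ± 0.10 for Tfcp2l1, with no call (adjusted p = 0.581, 0.453, 0.765 and 0.972). Prdm14, a PR-domain repressor of differentiation, was at 6.96 ± 0.685, 7.24 ± 0.0877 and 13.7 ± 1.76 CPM in the 3 lines and did differ between the Esrrb+Nanog and Esrrb lines (adjusted p = 0.000676). Klf5, Fgf4, Tet2 and Gbx2 rose by log2 values of 1.34, 1.20, 1.33 and 1.13.

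The 3 naive members that fell were Dppa3, Dppa5a and Klf2. Dppa3 (ENSMUSG00000046323, chromosome 6, 122626410 to 122630272), a maternal factor also called Stella that shields the genome from methylation changes, read 54.1, 51.9 and 59.8 CPM in the reference libraries. In the Esrrb+Nanog libraries it was nearly absent, at 0.406, 0.321 and 0.42 CPM, a log2 change of -7.15 ± 0.18 (adjusted p = 6.64e-10). The Esrrb line held 1.36 ± 0.378 CPM, more than the Esrrb+Nanog line (adjusted p = 0.000975). Dppa5a, an RNA-binding marker of stem cells, fell from 878 ± 23.9 to 533 ± 10.5 CPM and Klf2, another Krüppel-like factor, from 382 ± 29.3 to 276 ± 26.7 CPM.

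**Figure D2:**
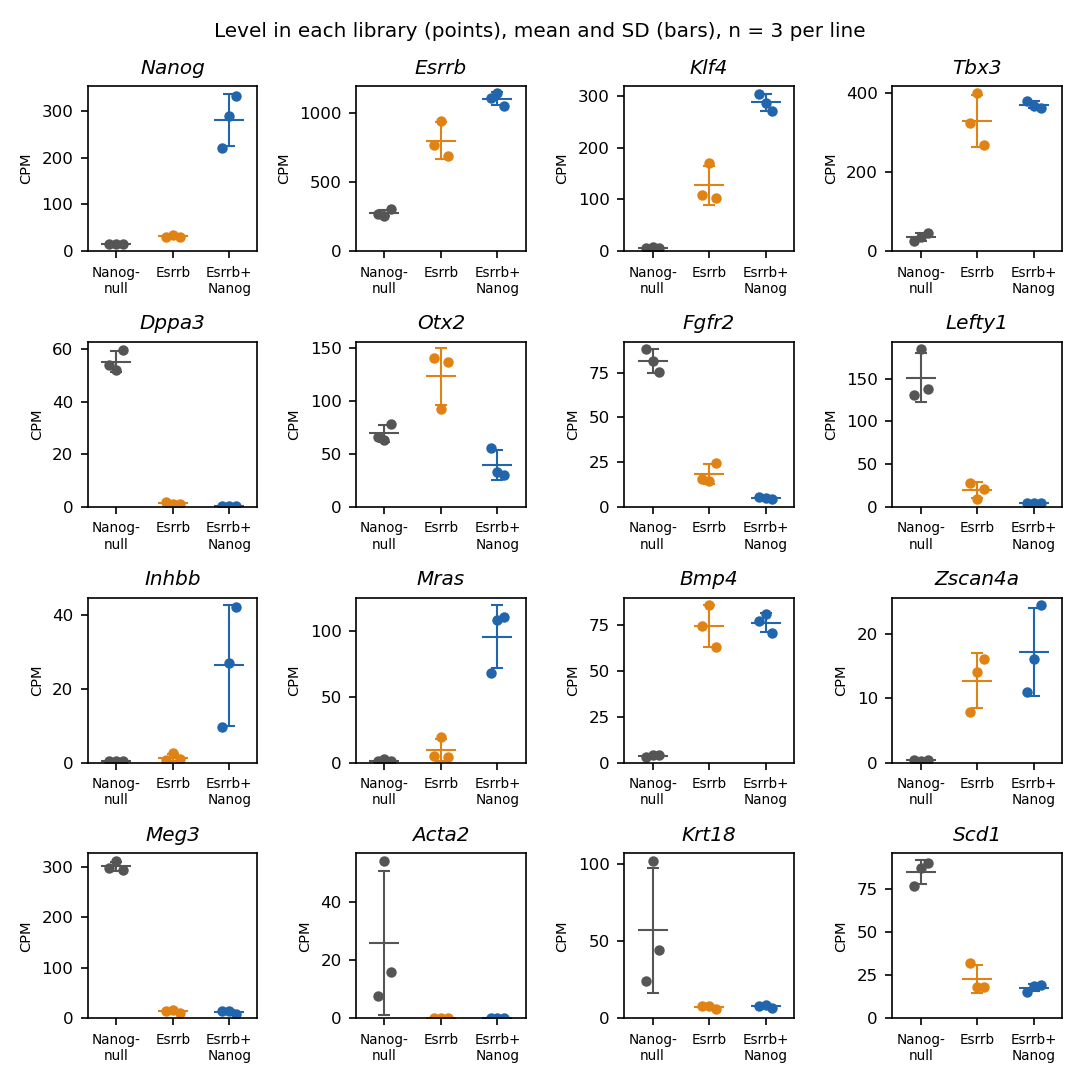
Level in CPM (vertical axes, linear and starting at 0) of 16 genes in each of the 9 libraries, grouped by line. Points are libraries, horizontal lines the mean and bars 1 SD (n = 3). Klf4, Nanog and Inhbb were highest in the Esrrb+Nanog line, Tbx3 and Bmp4 overlapped between the Esrrb and Esrrb+Nanog lines, Otx2 was highest in the Esrrb line, and Nanog-null replicate 2 was the highest library for Acta2 and Krt18.

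Pluripotency factors shared with later states moved both ways. Of 19 tested, 10 were higher and 6 lower, with a median log2 change of 0.27. The RNA-binding gene L1td1 rose from 914 ± 36 to 1481 ± 151 CPM, Trim28, the corepressor that silences retroviruses, from 2378 ± 45.9 to 3284 ± 354 CPM, and Foxd3, a forkhead repressor, from 49.2 ± 1.27 to 106 ± 13.7 CPM. Lin28a, which blocks maturation of the let-7 microRNAs, fell from 622 ± 32.3 to 272 ± 39.6 CPM and its relative Lin28b from 52.8 ± 4.84 to 30.1 ± 3.59 CPM. L1td1 and Trim28 were among the 5 genes with the largest CPM gain of all autosomal genes, beside Esrrb, Tfcp2l1 and Pabpc1, a poly(A)-binding protein gene, from 2452 ± 95.6 to 3227 ± 157 CPM.

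Estrogen-related receptors and their coregulators gave 5 of 13 higher and 3 lower. The 5 include Esrrb itself, an added gene whose rise the design set, so its part of the count is no support for a direction. Esrra, a relative of Esrrb, fell from 27.2 ± 1.09 to 20.7 ± 1.17 CPM. Nr5a2, an orphan receptor that can stand in for Oct4 in reprogramming, rose from 73.4 ± 5.28 to 129 ± 5.28 CPM, and Nr6a1, the germ cell nuclear factor that silences Oct4, fell from 174 ± 4.88 to 85.4 ± 4.78 CPM. Without Nanog-null replicate 3 or without Esrrb+Nanog replicate 3, 3 members were higher.

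Genes of the formative and primed epiblast were lower in the Esrrb+Nanog line. Of 16 tested members 10 were lower and 1 was higher, with a median log2 change of -0.89. Grhl2, a grainyhead factor of the epithelial epiblast, read 96.1, 90.7 and 98.7 CPM in the reference libraries, against 3.58, 5.14 and 8.81 CPM in those of the Esrrb+Nanog line (log2 change -4.02 ± 0.30, adjusted p = 8.59e-07). Pou3f1, a POU factor of the epiblast and neural plate also called Oct6, fell from 64.1 ± 9.46 to 13.9 ± 3.67 CPM, and Sfrp2, a secreted Wnt antagonist, from 55.9 ± 6.68 to 14.8 ± 0.81 CPM. Fgf5, the ligand that marks the postimplantation epiblast, had 208 counts over the Nanog-null libraries and 10 over the Esrrb+Nanog libraries, a ratio of 21.6 (95% exact interval 11.5 to 45.8) that covers counting error only. The model gave a log2 change of -4.40, or -5.05 without Esrrb+Nanog replicate 3.

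Otx2 took opposite directions in the added-gene lines. It read 66.3, 63.6 and 78.6 CPM in the reference libraries, 140.4, 92.7 and 137 CPM where Esrrb alone was added, and 55.4, 32.5 and 30.2 CPM in those of the Esrrb+Nanog line. The Esrrb+Nanog line was below the Nanog-null line (log2 change -0.82 ± 0.21, adjusted p = 0.00669) and below the Esrrb line (-1.64, adjusted p = 0.000642). The member that rose was Etv5, an ETS factor downstream of FGF, from 293 ± 21.1 to 379 ± 9.97 CPM. Zic2, a zinc finger factor of the early neural plate, was at 22.5 ± 2.77 and 37.3 ± 7.19 CPM and was not called (adjusted p = 0.0523). It passed in some alternatives, among them replicate number as a block (0.0416) and those without Esrrb replicate 2 (0.000855) or Esrrb replicate 3 (0.0293). In each of these, 2 members were higher, as also without Esrrb+Nanog replicate 3.

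Every tested gene of DNA methylation and demethylation was called, 6 higher and 9 lower of 15. Of those named below, the de novo genes fell, the maintenance genes rose and the Tet genes went both ways. The de novo methyltransferase gene Dnmt3b fell from 588 ± 46.4 to 285 ± 10.4 CPM and its cofactor Dnmt3l from 801 ± 15.5 to 522 ± 29.6 CPM. Dnmt3a was at 181 ± 0.275, 315 ± 36.1 and 153 ± 14.6 CPM across the Nanog-null, the Esrrb and the Esrrb+Nanog lines. Its small combined decrease (log2 change -0.24 ± 0.088, adjusted p = 0.0343) was not called without 1 of 5 libraries, with adjusted p of 0.0591, 0.0672 and 0.0718 without Nanog-null replicates 1, 2 and 3, and 0.114 and 0.0528 without Esrrb+Nanog replicates 1 and 3. The maintenance genes Dnmt1 and Uhrf1 rose slightly, by log2 values of 0.19 and 0.46. Tet1 and Tet2, oxidases that start demethylation, rose from 458 ± 144 to 950.0 ± 63 CPM and 74.1 ± 15.1 to 186 ± 29.7 CPM, while Tet3 fell from 36.1 ± 3.18 to 22.3 ± 1.58 CPM.

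Genes that mark the 2-cell-like state, a rare condition of stem cell cultures that resembles the cleavage embryo, were tested in 13 cases and were higher in all of them. Zscan4d (ENSMUSG00000090714, chromosome 7, 11161374 to 11166159), a zinc finger gene tied to telomere lengthening, measured 0.37, 0.231 and 0.334 CPM in the Nanog-null line against 9.11, 15.1 and 24.2 CPM with Esrrb and Nanog added. The repeated deubiquitinase gene Usp17le rose from 0.627 ± 0.103 to 10.8 ± 4.07 CPM, Zfp352 from 0.152 ± 0.105 to 3.84 ± 1.57 CPM, and Tcstv3 from 0.0703 ± 0.0595 to 1.44 ± 0.427 CPM. In the Esrrb line Zscan4d lay at 6.8, 13.2 and 14 CPM, with no call between the Esrrb+Nanog and Esrrb lines (adjusted p = 0.33). The Zscan4 and Usp17l genes are near-identical copies, so the division of reads among them is uncertain and the 13 genes are not 13 separate measurements. In bulk RNA, more cells of a type and more RNA per cell cannot be told apart. Of the 13 genes 12, all but Usp17le, did not reach the low-count cutoff in all 3 Nanog-null libraries and passed the filter through the lines in which they were high, so the count of higher genes is no support for a direction. Tcstv1 and Gm47924, also of this list, did not pass the filter. Where 5 CPM was required in 3 libraries, 8 genes were higher.

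Imprinted genes, expressed from the copy of 1 parent, were lower in 19 of 26 tested cases and higher in 2, with a median log2 change of -1.003. Some of them are neighbours in a cluster, as named below, so the 26 genes are not 26 separate measurements. The maternally expressed RNA Meg3 (ENSMUSG00000021268, chromosome 12, 109541001 to 109571726) had 297, 311 and 293 CPM in the 3 reference libraries, and 14.3, 14.4 and 9.41 CPM once both genes were added. Its neighbours in the Dlk1-Dio3 cluster, Rian and Mirg, fell from 417 ± 47.2 to 21.2 ± 4.46 CPM and 29.9 ± 1.33 to 1.75 ± 0.391 CPM. The paternally expressed genes of that cluster, Dlk1 and Rtl1, were lower as well, by log2 values of -2.500 and -3.95. For Meg3 and Rian no difference was called between the Esrrb+Nanog line and the Esrrb line (13.9 ± 2.31 and 20.1 ± 1.5 CPM, adjusted p = 0.615 and 0.783).

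Outside that cluster the growth factor gene Igf2 fell from 80.5 ± 36.2 to 4.26 ± 0.621 CPM and its neighbour H19 from 27.6 ± 7.12 to 2.2 ± 0.211 CPM. Both were lower in the Esrrb+Nanog line than in the Esrrb line, which held 11.8 ± 4.78 and 5.94 ± 1.6 CPM (adjusted p = 0.0272 and 0.00282). Peg10, a gene derived from a retrotransposon, was at 1881 ± 109, 1948 ± 101.4 and 811 ± 108 CPM in the 3 lines, lowest in the last (log2 change -1.21 ± 0.091, log2 difference to the Esrrb line -1.26, adjusted p = 1.39e-05). Phlda2, a growth inhibitor of the placenta, was at 36.8 ± 1.72, 11.9 ± 1.53 and 25.4 ± 2.31 CPM, lowest in the Esrrb line. The 2 members that rose were Ascl2 and Zrsr1, by log2 values of 0.81 and 0.69.

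Promoter sequences were searched for AAGGTCA, the core of the site that estrogen-related receptors such as Esrrb recognise. The promoters were those of RefSeq (GRCm38.p6), 250 bases before to 50 bases after a start site, for the 10975 tested autosomal genes with an entry. The motif stood on either strand in 4.1% of them. It stood in 4.47% of promoters of genes called higher, 3.67% of genes called lower and 4.14% of genes not called. For genes called higher by more than 2-fold the share was 5.24%, and for those called lower by more than 2-fold 3.76%. These shares are a description with no test, and a match is not a binding site. The sequences below are those of the genes named by rule with a match and a log2 change beyond 2 in either direction, shown because each is described in the text. Each reads 5′ to 3′ on the strand of the gene, in capitals where AAGGTCA or its reverse complement TGACCTT stands. For 3 genes the 250 bases before the start are given, and for Zfp57, whose match lies behind the start, the match with its flanks.
Zscan4d, called higher, minus strand, chr7:11166149-11166398: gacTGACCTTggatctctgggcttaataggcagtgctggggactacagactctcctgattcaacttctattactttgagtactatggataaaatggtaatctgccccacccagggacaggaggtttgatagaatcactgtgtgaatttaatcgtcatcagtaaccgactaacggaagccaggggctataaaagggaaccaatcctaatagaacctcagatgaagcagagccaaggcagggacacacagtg
Meg3, called lower, plus strand, chr12:109545148-109545397: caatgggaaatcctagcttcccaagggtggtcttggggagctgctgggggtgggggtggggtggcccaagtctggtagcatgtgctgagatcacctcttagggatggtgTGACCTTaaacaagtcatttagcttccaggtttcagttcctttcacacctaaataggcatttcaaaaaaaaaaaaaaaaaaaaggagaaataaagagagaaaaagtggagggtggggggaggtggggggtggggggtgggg
Stra8, called lower, plus strand, chr6:34920698-34920947: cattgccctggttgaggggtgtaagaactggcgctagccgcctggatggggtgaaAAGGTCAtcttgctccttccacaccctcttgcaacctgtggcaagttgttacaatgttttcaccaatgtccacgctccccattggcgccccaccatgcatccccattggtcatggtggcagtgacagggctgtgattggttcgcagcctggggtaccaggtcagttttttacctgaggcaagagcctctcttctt
Zfp57, called higher, plus strand, chr17:37002521-37002549: atctaaatttcTGACCTTggcagacagcc
The match begins 247 bases before the start in Zscan4d, 141 before it in Meg3 and 195 before it in Stra8. The RefSeq starts of Meg3 and Stra8 lie within the genes as annotated by GENCODE, and so do the 250 bases printed for each.

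Germline and meiosis genes gave 9 of 17 higher and 5 lower. Ddx4, the Vasa helicase of germ cells, rose from 14.5 ± 0.669 to 32 ± 3.28 CPM, Dazl, an RNA-binding gene of germ cells, from 5.27 ± 0.238 to 12.3 ± 1.02 CPM, and Mov10l1, a helicase of the piRNA pathway, from 4.83 ± 0.0752 to 18.4 ± 1.6 CPM. Kit, the receptor of stem cell factor, was at 37.6 ± 4.38, 43.8 ± 14.9 and 148 ± 34.3 CPM across the Nanog-null, the Esrrb and the Esrrb+Nanog lines, with the increase in the Esrrb+Nanog line (log2 change 1.97 ± 0.21, log2 difference to the Esrrb line 1.75). Stra8 (ENSMUSG00000029848, chromosome 6, 34920163 to 34939344), the gene of meiotic entry that retinoic acid induces, read 11.9, 20.3 and 20.6 CPM in the reference libraries, against 0.258, 0.241 and 0.35 CPM in those of the Esrrb+Nanog line. Its log2 change was -5.93 ± 0.36 (adjusted p = 1.95e-07). Prdm1, the repressor also called Blimp1 that specifies germ cells, fell from 52 ± 3.39 to 6.15 ± 2.17 CPM, and the Tudor-domain gene Tdrd12 from 99.8 ± 15.1 to 14.2 ± 2.21 CPM.

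In several lists of other lineages 1 library of the reference line stood apart. Against the mean of its 2 partners, Nanog-null replicate 2 stood at a median log2 ratio of 1.19 over the primitive endoderm list, 1.04 over keratins and the contractile cytoskeleton and 0.70 over fibroblast genes. The same ratio over all tested autosomal genes was -0.0019. Replicate 2 was also the highest library within the Esrrb and the Esrrb+Nanog lines for the summed keratin list (773 and 650 CPM) and fibroblast list (34.3 and 33.8 CPM), by smaller margins. For the primitive endoderm list it was highest in the Esrrb line (1427 CPM) and lowest in the Esrrb+Nanog line (1340 CPM). Below, values without Nanog-null replicate 2 are given for the genes and counts that moved most without it. Several defining markers of these lineages did not pass the low-count filter, among them Foxa2 of endoderm, Ttr and Afp of visceral endoderm, Elf5 and Tpbpa of trophoblast, and Dcn and Lum of stroma.

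Primitive endoderm genes, of the extraembryonic layer that forms beside the epiblast, gave 3 of 19 higher and 8 lower, with a median log2 change of -0.27. Their summed level was 1354 to 1773 CPM in the Nanog-null libraries and 1340 to 1620 CPM in the Esrrb+Nanog libraries, which overlapped. Without Nanog-null replicate 2, 4 were higher and 6 lower. Where 5 CPM was required in 3 libraries, 5 were lower. Of the 19 genes 3 did not reach the low-count cutoff in all 3 Nanog-null libraries, and 3 not in all 3 Esrrb+Nanog libraries. The lineage regulators Gata4, Sox17 and Gata6 were at 2.73 and 2.54 CPM, 0.788 and 0.713 CPM and 3.66 and 6.9 CPM in the Nanog-null and Esrrb+Nanog lines and were not called (adjusted p = 0.819, 0.802 and 0.168). With replicate number as a block in the model, Gata6 was called higher (log2 change 0.95, adjusted p = 0.000176). It was at 25.1 ± 12.9 CPM in the Esrrb line, above the Esrrb+Nanog line (log2 difference -1.87, adjusted p = 0.022).

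The receptor gene Fgfr2 (ENSMUSG00000030849, chromosome 7, 130162451 to 133123350), through which FGF4 acts on primitive endoderm, measured 88.1, 81.4 and 75.1 CPM in the Nanog-null line against 5.42, 4.82 and 4.44 CPM with Esrrb and Nanog added. Its log2 change was -4.06 ± 0.19 (adjusted p = 2.52e-08), with the Esrrb line between, at 18.1 ± 5.55 CPM. The endocytic receptor genes Lrp2 and Cubn fell from 329 ± 77.9 to 97.7 ± 27.7 CPM and 4.71 ± 3.7 to 0.373 ± 0.195 CPM, and the adaptor gene Dab2 from 11.9 ± 5.56 to 2.01 ± 0.28 CPM. Cubn changed by -2.93 in place of -3.66 without Nanog-null replicate 2. Lama1, which encodes the laminin alpha chain of the embryonic basement membrane, rose from 43.5 ± 18.5 to 356 ± 41.5 CPM, above the Esrrb line at 136 ± 41.4 CPM (adjusted p = 0.00466). Sox7, a partner of Sox17 in endoderm, rose from 0.344 ± 0.303 to 2.16 ± 0.325 CPM, a log2 change of 2.62, and of 3.59 without Nanog-null replicate 2. Sparc, a matrix glycoprotein gene, rose from 64.9 ± 34.9 to 128 ± 24.9 CPM (adjusted p = 0.0145), a call lost without Nanog-null replicate 3 (0.065) or Esrrb+Nanog replicate 3 (0.0501).

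Parietal and visceral endoderm genes gave 3 of 11 higher and 3 lower, close to the shares of all genes (27.5% and 26.8%), so the list does not stand out. It gave 1 lower without Nanog-null replicate 2, Esrrb+Nanog replicate 1 or Esrrb+Nanog replicate 3. The same count resulted where 5 CPM was required in 3 libraries. Vim, the vimentin gene, rose from 54.4 ± 29.3 to 339 ± 74.8 CPM, and the protease inhibitor gene Spink1 from 1.37 ± 0.32 to 13.4 ± 4.56 CPM. Of primitive streak and mesoderm genes 1 of 7 was higher, the VEGF receptor gene Kdr, from 1.44 ± 0.16 to 12 ± 3.89 CPM, and 1 was lower, Tbx6, at 1.12 ± 0.149 and 0.526 ± 0.169 CPM. The streak gene T was at 0.475 ± 0.0225 and 0.922 ± 0.448 CPM (adjusted p = 0.073). It was called higher without Esrrb+Nanog replicate 1 (0.00624) or with replicate number as a block (0.0451), which made 2 members higher. Neuroectoderm genes gave 4 of 9 higher and 3 lower. The neural adhesion gene Ncam1 was at 3.54 ± 0.969, 6.47 ± 1.01 and 25 ± 4.78 CPM across the Nanog-null, the Esrrb and the Esrrb+Nanog lines, Sfrp1 at 17.7 ± 1.92, 24 ± 2.56 and 67.2 ± 12.9 CPM, and both stood above the Esrrb line (adjusted p = 9.01e-05 and 5.50e-05). Sox11, an SRY-related factor of neural precursors, fell from 113 ± 10.3 to 29.3 ± 1.25 CPM and Pax6, an eye and forebrain regulator, from 10.9 ± 0.94 to 6.89 ± 0.718 CPM.

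Trophoblast genes, of the placental lineage, gave 3 of 13 higher and 6 lower, with a median log2 change of -1.06. Their summed level was 123 to 294 CPM in the Nanog-null libraries, highest in replicate 2, and 84.1 to 105 CPM in the Esrrb+Nanog libraries. Without Nanog-null replicate 2 the counts were again 3 higher and 6 lower. Of the 13 genes 1 did not reach the low-count cutoff in all 3 Nanog-null libraries, and 2 not in all 3 Esrrb+Nanog libraries. The lineage regulator Cdx2 was at 0.713 ± 0.319 and 0.346 ± 0.213 CPM and not called (adjusted p = 0.073). Leaving out a library gave it adjusted p from 0.0269 (without Nanog-null replicate 1) to 0.245 (without Nanog-null replicate 2), and 0.0401 without Esrrb+Nanog replicate 3. Tfap2c, an AP-2 factor of trophoblast and germ cells, fell from 50.2 ± 5.41 to 19.3 ± 3.22 CPM, while its relative Tfap2a was at 2.54 ± 0.333, 2.51 ± 0.803 and 14.1 ± 3.56 CPM in the 3 lines and rose in the Esrrb+Nanog line (log2 change 2.46 ± 0.24, log2 difference to the Esrrb line 2.49). Tead4, the TEAD factor of trophectoderm, rose from 13 ± 2.98 to 19.6 ± 3.37 CPM (adjusted p = 0.0194), a call lost without Nanog-null replicate 1 (0.0819) or Esrrb+Nanog replicate 2 (0.0855).

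**Figure D3:**
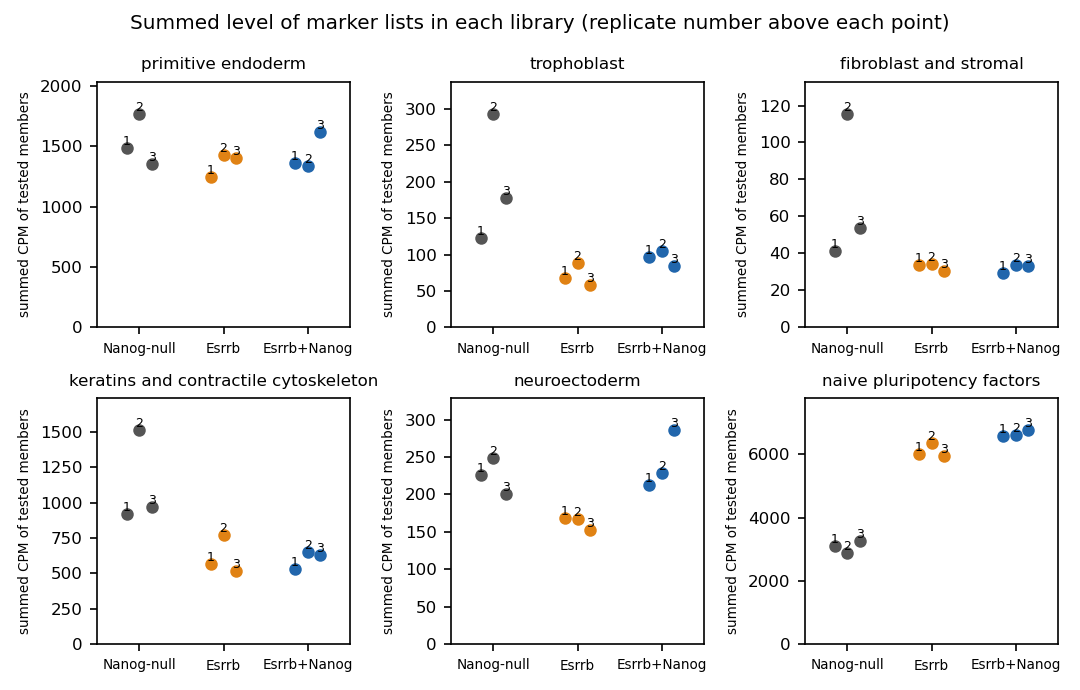
Summed CPM of the tested members of 6 gene lists (vertical axes, starting at 0) in each library, with the replicate number above each point. Nanog-null replicate 2 was the highest library for the trophoblast, fibroblast and keratin lists, while the naive factors separated the Nanog-null line from the others without overlap.

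Keratins and genes of the contractile cytoskeleton were lower in 14 of 16 tested cases and higher in 2, with a median log2 change of -1.84. Without Nanog-null replicate 2, 12 were lower. Of the 16 genes 5 did not reach the low-count cutoff in all 3 Esrrb+Nanog libraries and passed the filter with the help of other lines. All 16 reached it in every Nanog-null library, so the filter favoured lower calls among those 5. Their part of the count is no support for a direction. Over the alternatives 10 to 14 were lower. Myh9, the heavy chain of non-muscle myosin, had 413, 534 and 425 CPM in the 3 reference libraries, and 64.1, 53.5 and 50.7 CPM once both genes were added (log2 change -3.03 ± 0.12, adjusted p = 6.53e-09). The tropomyosin gene Tpm1 fell from 257 ± 73 to 58.9 ± 1.17 CPM, also with no overlap. Krt18, the simple epithelial keratin, read 24.4, 102 and 44.4 CPM in the reference libraries, against 8.0, 8.6 and 6.96 CPM in those of the Esrrb+Nanog line, and its log2 change of -2.86 ± 0.41 was -2.14 without Nanog-null replicate 2. Its partner Krt8 changed by -1.55, and by -0.76 without that library. Krt19 changed by -3.78 and -3.09. Krt7 changed by -5.88, and by -7.41 without Esrrb+Nanog replicate 1.

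Acta2 (ENSMUSG00000035783, chromosome 19, 34241090 to 34255590), the actin of smooth muscle and myofibroblasts, read 7.69, 54.3 and 16 CPM in the reference libraries, with 4 counts over the 3 Esrrb+Nanog libraries, a ratio of 534 (95% exact interval 208 to 1960). The model gave -8.91 on the log2 scale, or -7.79 with Nanog-null replicate 2 left out and -10.09 without Esrrb+Nanog replicate 3. The collagen gene Col1a2 fell from 7.87 ± 7.78 to 0.199 ± 0.0764 CPM, by a log2 change of -5.28, or -4.10 without Nanog-null replicate 2. Of the fibroblast and stromal list, the markers of feeder cells, 1 of 9 was higher and 4 were lower, as also without Nanog-null replicate 2. Where 5 CPM was required in 3 libraries, 2 were lower. All 9 genes reached the low-count cutoff in every Nanog-null library. In the Esrrb+Nanog libraries 3 of them did not, and these passed the filter with the help of other lines. The count of lower genes is therefore no support for a direction. The collagen gene Col1a1 was at 3.61 ± 3.43 and 1.73 ± 0.338 CPM and not called (adjusted p = 0.0987). Its log2 change was -1.06, -1.47 without Nanog-null replicate 1 (adjusted p = 0.0162) and 0.047 without Nanog-null replicate 2 (0.904), the highest of the 3 reference libraries. The surface antigen gene Thy1 rose from 2.26 ± 0.198 to 9.23 ± 3.0 CPM. Vim and Lmna, the genes of vimentin and of nuclear lamin A, were the 2 members of the cytoskeletal list that rose, Lmna from 23.8 ± 3.53 to 40.9 ± 3.46 CPM.

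Of 14 tested cell adhesion genes 8 were lower and 3 higher, with a median log2 change of -0.68. Cdh1, which encodes E-cadherin, measured 409, 435 and 408 CPM in the Nanog-null line against 153, 165 and 168 CPM with Esrrb and Nanog added. Epcam, an epithelial surface marker, fell from 230.4 ± 10.6 to 64.1 ± 10.6 CPM, the tight junction gene Cldn6 from 62.5 ± 10.2 to 7.6 ± 0.733 CPM, and the sialomucin gene Podxl from 112 ± 16.9 to 19 ± 0.947 CPM. The P-cadherin gene Cdh3 was at 50.7 ± 2.77, 14.2 ± 3.39 and 40.1 ± 1.47 CPM across the Nanog-null, the Esrrb and the Esrrb+Nanog lines. Its call in the combined comparison (adjusted p = 0.0468) was lost without any 1 of 5 libraries, with adjusted p of 0.0821 and 0.125 without Nanog-null replicates 2 and 3, and 0.0797, 0.0796 and 0.121 without Esrrb+Nanog replicates 1, 2 and 3. The Esrrb+Nanog line stood above the Esrrb line in this gene (adjusted p = 6.47e-05). Jam2 and Icam1 were higher, Icam1 from 37.9 ± 2.95 to 74.7 ± 2.42 CPM.

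Basement membrane, integrin and collagen genes gave 6 of 19 higher and 9 lower. Col18a1, the collagen gene that gives rise to endostatin, showed one of the 5 largest called CPM losses, from 750.0 ± 54.5 to 149 ± 26.1 CPM (a log2 change of -2.33 ± 0.11, adjusted p = 2.67e-08). The laminin chain genes split, with Lama5 and Lamb1 down from 544 ± 45.5 to 274 ± 17.3 CPM and 166 ± 32.8 to 57.4 ± 4.64 CPM and Lama1 up. The linker gene Nid1 rose from 66.2 ± 2.78 to 160.4 ± 23.3 CPM, and the integrin genes Itga6 and Itgav went apart, with log2 changes of 0.63 and -0.85.

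**Figure D4:**
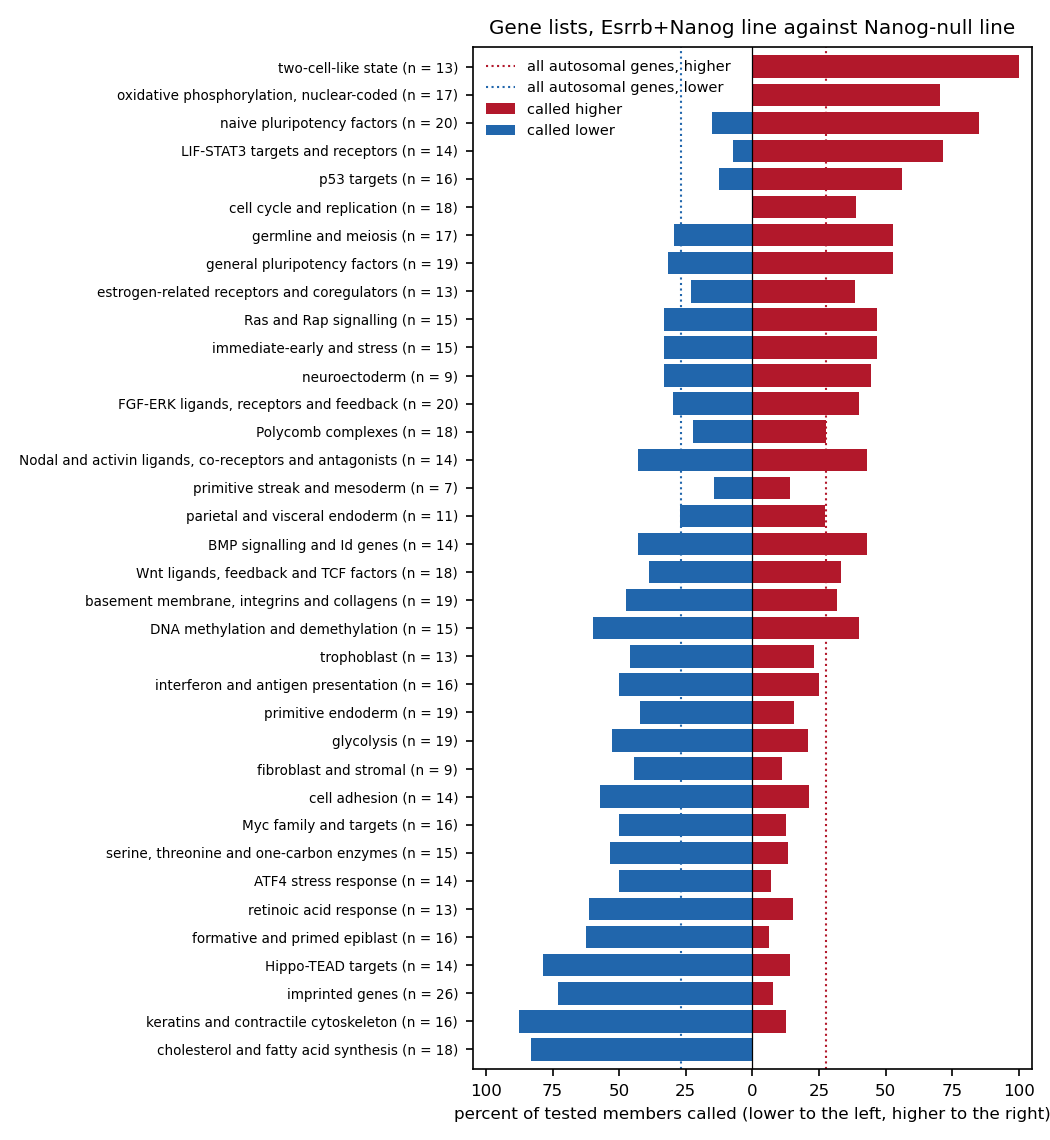
Share of the tested members of each of 36 gene lists that were called lower (blue, to the left) or higher (red, to the right), in percent, with the number tested in brackets. Dotted lines mark the shares over all autosomal genes, 26.8% lower and 27.5% higher. The 2-cell-like state and naive factors lie at the top with mostly higher members, and cholesterol synthesis, cytoskeletal and imprinted genes at the bottom with mostly lower members. Of the 13 genes of the 2-cell-like list 12 passed the filter through the lines in which they were high, so its bar is no support for a direction. Of the 16 cytoskeletal genes 5 passed with the help of lines other than Esrrb+Nanog.

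Receptors and targets of LIF and its effector STAT3 were higher in 10 of 14 tested cases and lower in 1, with a median log2 change of 0.88. The list shares Klf4, Tfcp2l1 and Gbx2 with the naive factors. The receptor gene Lifr rose from 133 ± 26.4 to 206 ± 12.8 CPM, and Stat3 itself had 61.9, 59.1 and 57.8 CPM in the 3 reference libraries, and 199, 203 and 199 CPM once both genes were added. Socs3, the feedback inhibitor of the pathway, rose from 32 ± 3.58 to 229.9 ± 13.7 CPM (log2 change 2.84 ± 0.35), and the NF-kappaB cofactor gene Bcl3 from 16.9 ± 1.2 to 77.7 ± 10.1 CPM. The kinase gene Pim1 was the member that fell, from 257 ± 28.8 to 104 ± 6.82 CPM, and without Nanog-null replicate 1 there were 2 lower members.

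Ligands, receptors and feedback genes of the FGF-ERK pathway, which drives stem cells out of the naive state, gave 8 of 20 higher and 6 lower. The ligand gene Fgf4 rose from 70.6 ± 9.79 to 162 ± 15.8 CPM while the receptor gene Fgfr2 fell. Among ETS targets Etv4 rose from 51.1 ± 4.3 to 249.7 ± 36.1 CPM, and Etv1 was at 45.4 ± 5.59, 74.5 ± 11.8 and 45.8 ± 1.32 CPM in the 3 lines. The feedback genes split: the phosphatase gene Dusp4 fell from 194 ± 14 to 39.7 ± 8.25 CPM and Spry1 from 52.2 ± 2.43 to 19.7 ± 1.14 CPM, and Spry4 and Dusp6 rose by log2 values of 0.87 and 0.69. Dusp4 was also lower than in the Esrrb line, at 121 ± 13.4 CPM (adjusted p = 3.68e-05). The immediate-early factor Egr1 rose from 13.4 ± 4.23 to 41.8 ± 10.6 CPM.

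The Nodal and activin list gave 6 of 14 higher and 6 lower, with antagonists and ligands among the largest changes. Lefty1 (ENSMUSG00000038793, chromosome 1, 180935022 to 180938400), a secreted antagonist of Nodal, read 131, 184 and 138 CPM in the reference libraries, against 4.13, 4.22 and 4.41 CPM in those of the Esrrb+Nanog line (log2 change -5.15 ± 0.33, adjusted p = 3.22e-07). Its relative Lefty2 was at 66.8 ± 7.08, 96.2 ± 40.5 and 11.4 ± 1.3 CPM across the Nanog-null, the Esrrb and the Esrrb+Nanog lines, lowest in the last (log2 difference to the Esrrb line -3.07, adjusted p = 2.66e-05). Skil, a corepressor of SMAD factors, fell from 412 ± 47.8 to 98.6 ± 4.33 CPM.

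Inhbb (ENSMUSG00000037035, chromosome 1, 119415465 to 119422248), which encodes a subunit of activin and inhibin, read 0.417, 0.346 and 0.434 CPM in the reference libraries, 0.69, 2.48 and 0.921 CPM where Esrrb alone was added, and 9.7, 27 and 42.3 CPM in those of the Esrrb+Nanog line. The Esrrb+Nanog libraries spread widely among themselves, and all 3 lay above every other library (log2 change 6.03 ± 0.64, adjusted p = 1.23e-05). The inhibitory SMAD gene Smad7 rose from 46.6 ± 5.5 to 181 ± 18.4 CPM and Pcsk6, a protease that processes Nodal and Lefty, from 16.3 ± 1.6 to 109 ± 11.4 CPM. Nodal itself rose only from 43.5 ± 0.676 to 55.5 ± 5.95 CPM (log2 change 0.35 ± 0.083).

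BMP signalling and Id genes gave 6 of 14 higher and 6 lower, or 3 lower where 5 CPM was required in 3 libraries. The ligand gene Bmp4 (ENSMUSG00000021835, chromosome 14, 46383520 to 46390669) read 2.82, 4.12 and 4.14 CPM in the reference libraries, 74.7, 85.8 and 63.2 CPM where Esrrb alone was added, and 77.4, 80.9 and 70.5 CPM in those of the Esrrb+Nanog line. Both added-gene lines lay far above the Nanog-null line and overlapped with each other. Id genes, which encode inhibitors of helix-loop-helix factors and are targets of BMP, did not move together: Id1 and Id3 rose from 31 ± 1.56 to 59 ± 7.33 CPM and 9.18 ± 2.2 to 36.9 ± 4.18 CPM, while Id2 and Id4 fell from 26.3 ± 4.9 to 9.88 ± 1.31 CPM and 6.57 ± 0.705 to 3.65 ± 0.484 CPM. Smad6, the other inhibitory SMAD gene, was at 5.89 ± 1.32, 1.39 ± 0.552 and 3.63 ± 1.79 CPM in the 3 lines and not called (adjusted p = 0.0944, but 0.00783 without Esrrb+Nanog replicate 3). With replicate number as a block it was called lower (adjusted p = 0.0169).

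Wnt ligands, feedback genes and TCF factors gave 6 of 18 higher and 7 lower. Axin2, the feedback inhibitor of the pathway, rose from 9.74 ± 0.245 to 30.7 ± 3.65 CPM, and the palmitate hydrolase gene Notum from 11.4 ± 1.51 to 36.5 ± 7.6 CPM. The ligand gene Wnt6 was at 0.431 ± 0.213, 12.4 ± 1.88 and 6.62 ± 0.954 CPM across the Nanog-null, the Esrrb and the Esrrb+Nanog lines, and Wnt4 fell from 2.48 ± 1.88 to 0.126 ± 0.0933 CPM. Tcf7l1, the repressor of Wnt targets in stem cells, fell from 135 ± 10.4 to 64.1 ± 6.58 CPM, as did Lef1, from 18.5 ± 1.4 to 5.44 ± 3.05 CPM. The cyclin gene Ccnd1 was at 34 ± 4.11, 11.8 ± 0.704 and 27.6 ± 16.9 CPM in the 3 lines, with no call in the combined comparison (adjusted p = 0.424, but 0.000202 without Esrrb+Nanog replicate 3).

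Retinoic acid response genes were lower in 8 of 13 tested cases and higher in 2, with a median log2 change of -0.87. Cyp26a1, which degrades retinoic acid, fell from 5.06 ± 0.463 to 0.713 ± 0.133 CPM, and Crabp1, a cytosolic binding protein gene, rose from 2.76 ± 0.109 to 13.8 ± 1.7 CPM. The receptor gene Rara rose from 67.4 ± 0.978 to 112 ± 4.97 CPM, and Rarg was at 200.3 ± 9.8, 301 ± 22 and 200.4 ± 31.8 CPM in the 3 lines, highest in the Esrrb line (log2 difference between the Esrrb+Nanog and Esrrb lines -0.59, adjusted p = 0.00335). Most members lay under 5 CPM, and where 5 CPM was required in 3 libraries, 2 were lower. All 13 genes reached the low-count cutoff in every Nanog-null library. In the Esrrb+Nanog libraries 3 of them did not, and these passed the filter with the help of other lines. The count of lower genes is therefore no support for a direction.

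Targets and factors of the Hippo pathway, which restrains the coactivators YAP and TAZ, were lower in 11 of 14 tested cases and higher in 2, with a median log2 change of -0.70. Ccn2 and Ccn1, matricellular targets of YAP, fell from 83.2 ± 14.8 to 24.1 ± 2.71 CPM and 42.9 ± 19.5 to 14.3 ± 2.24 CPM, and Amotl1, which binds YAP, from 59.1 ± 10.3 to 12.9 ± 2.22 CPM. Of the 4 TEAD factor genes 3 fell, with log2 changes of -0.69 for Tead1, -0.96 for Tead2 and -0.44 for Tead3. Wwtr1, the gene of TAZ, rose from 47.7 ± 6.85 to 75.1 ± 7.21 CPM, and Yap1 was at 240.4 ± 3.92 and 248 ± 12 CPM with no call (adjusted p = 0.541). With Tead4 lost, as without Nanog-null replicate 1 or Esrrb+Nanog replicate 2, 1 member was higher.

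Ras and Rap genes gave 7 of 15 higher and 5 lower, and 3 members were among the larger increases of the comparison. Mras (ENSMUSG00000032470, chromosome 9, 99385420 to 99437381), a Ras relative that activates RAF through the SHOC2 phosphatase complex, read 1.02, 2.42 and 1.14 CPM in the reference libraries, 4.7, 19.1 and 4.3 CPM where Esrrb alone was added, and 68, 108 and 110.3 CPM in those of the Esrrb+Nanog line. The 3 lines did not overlap, and the log2 change was 5.95 ± 0.58 (adjusted p = 6.05e-06). Rapgef3 and Rapgef4, exchange factors for Rap that cAMP activates, differed in where they rose. Rapgef3 was at 0.543 ± 0.237, 19.7 ± 11.3 and 30.9 ± 8.76 CPM across the Nanog-null, the Esrrb and the Esrrb+Nanog lines and Rapgef4 at 2.43 ± 1.05, 1.88 ± 0.865 and 13.8 ± 1.36 CPM. The Ras GTPase-activating gene Rasal1 fell from 10.3 ± 0.431 to 4.89 ± 0.548 CPM.

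**Figure D5:**
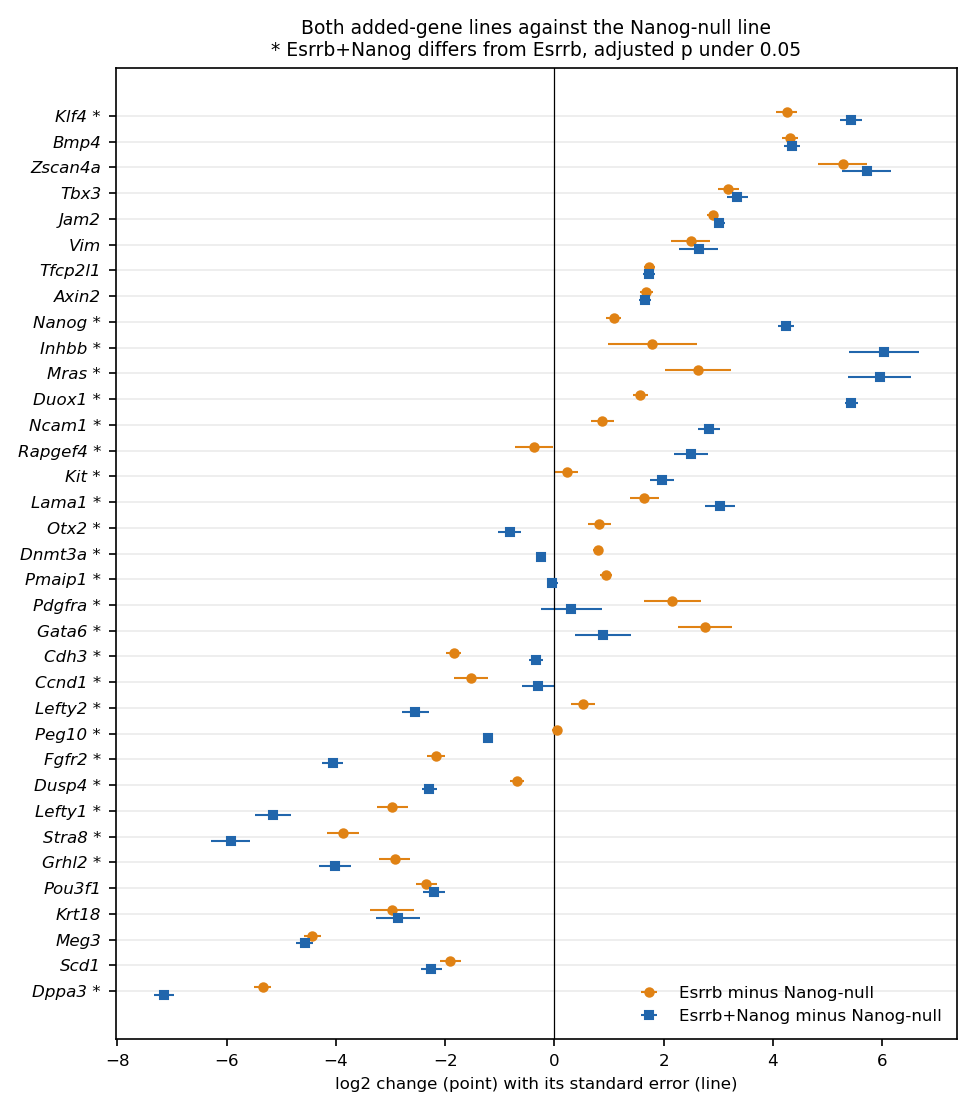
Log2 change against the Nanog-null line (horizontal axis) for 35 named genes in the Esrrb line (circles) and the Esrrb+Nanog line (squares), with standard errors as lines; an asterisk marks genes in which the Esrrb+Nanog line differed from the Esrrb line. Klf4 and Fgfr2 extend further with both genes added, Inhbb, Mras and Duox1 far further, the points of Bmp4 and Meg3 lie close together, and Otx2 and Dnmt3a lie on opposite sides of 0.

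The lists of cholesterol, oxidative phosphorylation, glycolysis and one-carbon genes had median log2 changes from -0.47 to 0.21. Cholesterol and fatty acid synthesis genes were lower in 15 of 18 tested cases and higher in none by edgeR, with a median log2 change of -0.47; 0 were higher at an unadjusted p under 0.05 or by DESeq2 as well. Srebf2, the master regulator of cholesterol synthesis, fell from 384 ± 28.9 to 260.3 ± 15.5 CPM. The desaturase genes Scd1 and Scd2 fell from 84.6 ± 7.02 to 17.8 ± 2.07 CPM and 616 ± 45.2 to 307 ± 46.7 CPM, Scd1 by the most of the list. Fasn, fatty acid synthase, was at 669 ± 37.6 and 609 ± 99 CPM and not called (adjusted p = 0.311).

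Oxidative phosphorylation genes of the nucleus were higher in 12 of 17 tested cases and lower in none by edgeR, with a median log2 change of 0.21; 0 were lower at an unadjusted p under 0.05 or by DESeq2 as well. Cox5a, a subunit of cytochrome oxidase, rose from 104 ± 2.18 to 178 ± 7.34 CPM and Ndufa9, of complex I, from 76.8 ± 2.3 to 119.8 ± 5.54 CPM; the other called members rose by less than 0.5 on the log2 scale. Without Nanog-null replicate 1, 7 were higher. Glycolysis genes gave 4 of 19 higher and 10 lower. The transporter genes at either end differed, with the glucose importer Slc2a1 up from 488 ± 80.7 to 795 ± 63.3 CPM and the lactate exporter Slc16a3 down from 190.2 ± 14.6 to 79.4 ± 13.8 CPM. Hk1 and Hk2, the hexokinases, rose by log2 values of 1.13 and 0.63, and Ldha, lactate dehydrogenase, was at 1097 ± 32.6, 1276 ± 74.1 and 758 ± 140.1 CPM across the Nanog-null, the Esrrb and the Esrrb+Nanog lines, lowest in the last.

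Enzymes of serine, threonine and one-carbon metabolism gave 2 of 15 higher and 8 lower. The serine synthesis genes Phgdh and Psat1 fell from 166 ± 4.82 to 66 ± 9.03 CPM and 666 ± 29.4 to 228 ± 47.3 CPM, and Gldc, of the glycine cleavage system, from 897 ± 38.3 to 312 ± 26.5 CPM. Tdh, the threonine dehydrogenase on which mouse stem cells rely, and Mthfd1 rose by log2 values of 0.27 and 0.22. Several of the genes that fell are also induced by the stress factor ATF4, whose target list gave 7 of 14 lower and 1 higher. In that list Cth, of cysteine synthesis, fell from 131 ± 11.9 to 29.7 ± 7.95 CPM, the glutathione-degrading Chac1 from 38.8 ± 3.74 to 7.51 ± 4.58 CPM, and Ddit4, an inhibitor of mTORC1, from 109.9 ± 24.1 to 28.1 ± 3.44 CPM. Atf4 itself was at 385 ± 15.3 and 312 ± 44.9 CPM with no call (adjusted p = 0.102, but 0.0139 without Esrrb replicate 2 and 0.0487 without Esrrb+Nanog replicate 1). The amino acid transporter gene Slc38a2, with one of the largest CPM losses of all genes, fell from 1009 ± 104 to 422 ± 46.4 CPM. The ATF4 member that rose was Ppp1r15a, from 44.4 ± 6.68 to 60.5 ± 3.14 CPM; 3 rose without Esrrb replicate 2 and 2 without Esrrb+Nanog replicate 3.

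Myc genes and targets gave 2 of 16 higher and 8 lower. Mycn and Mycl fell from 389.8 ± 6.3 to 104.8 ± 20.2 CPM and 38.1 ± 5.35 to 8.64 ± 1.63 CPM, and Myc was at 67.8 ± 8.47, 98.9 ± 5.39 and 63.5 ± 15.8 CPM in the 3 lines, with no combined call (adjusted p = 0.624). The 2 that rose, Mxd1 and Odc1, did so by log2 values of 0.33 and 0.28, and both calls were lost when single libraries were left out. Odc1 was not called without Esrrb+Nanog replicate 3 (adjusted p = 0.0724), Esrrb+Nanog replicate 2 (0.0614) or Nanog-null replicate 3 (0.0677). That of Mxd1 was lost with any of 5 left out: Nanog-null replicate 1 (0.136) or 2 (0.104), Esrrb replicate 1 (0.0559), or Esrrb+Nanog replicate 1 (0.138) or 3 (0.0728). The translation factor genes Eef2 and Eef1a1, whose CPM losses were among the 5 largest, fell from 7638 ± 439 to 4428 ± 233 CPM and 8130.4 ± 42.3 to 6410.1 ± 185 CPM.

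Targets of the tumour suppressor p53 gave 9 of 16 higher and 2 lower. The p53-induced cyclin gene Ccng1 rose from 119 ± 18.1 to 274 ± 12.1 CPM, the antiproliferative gene Btg2 from 9.67 ± 2.11 to 25.6 ± 2.97 CPM, and Cdkn1a, the inhibitor p21, from 19.1 ± 0.729 to 29 ± 3.1 CPM. Pmaip1, the death effector Noxa, was at 40.5 ± 1.37, 78 ± 5.03 and 39.6 ± 6.37 CPM across the Nanog-null, the Esrrb and the Esrrb+Nanog lines, highest in the Esrrb line and with no call in the combined comparison (log2 change -0.036 ± 0.10, adjusted p = 0.789). Zmat3 fell by 0.37 on the log2 scale, and Bbc3, the death effector Puma, by 0.29, a call lost without Nanog-null replicate 2 (adjusted p = 0.0591), Nanog-null replicate 3 (0.0512) or Esrrb+Nanog replicate 2 (0.0837). Cell cycle and replication genes gave 7 of 18 higher and none lower by edgeR, at an unadjusted p under 0.05 or by DESeq2. In alternative fits 1 was lower without Nanog-null replicate 1 or Esrrb+Nanog replicate 1. There were 2 lower without Esrrb+Nanog replicate 3 and 3 without a low-count filter. Ccnd3, cyclin D3, rose from 107 ± 5.3 to 368 ± 57.4 CPM and Cdc20, the activator of anaphase, from 294 ± 11.8 to 499 ± 74 CPM. The proliferation marker Mki67 was at 391 ± 70.5 and 411 ± 24.3 CPM (adjusted p = 0.592, but 0.0262 without Nanog-null replicate 1).

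Interferon and antigen presentation genes gave 4 of 16 higher and 8 lower, with a median log2 change of -0.66. Where 5 CPM was required in 3 libraries, 5 were lower. The class I antigen gene H2-K1 fell from 47.9 ± 8.85 to 12.1 ± 0.597 CPM, Irf1, a regulator of class I genes, from 64.5 ± 6.03 to 15.6 ± 2.3 CPM, and the peptide transporter gene Tap1 from 7.53 ± 2.34 to 1.62 ± 0.331 CPM. Psmb8, an immunoproteasome subunit, had 208 counts over the Nanog-null libraries and 1 over the Esrrb+Nanog libraries. The RNA sensor gene Ddx58, which encodes RIG-I, rose from 35.9 ± 0.0904 to 115 ± 5.27 CPM, and the membrane gene Ifitm2 from 28 ± 1.16 to 57 ± 8.03 CPM. Its neighbour Ifitm1 was at 92.8 ± 2.55, 45.2 ± 6.23 and 77 ± 15.2 CPM in the 3 lines with no call (adjusted p = 0.0924, but 0.00687 without Esrrb+Nanog replicate 3). With replicate number as a block it was called lower (adjusted p = 0.0498).

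Immediate-early and stress genes gave 7 of 15 higher and 5 lower. Nr4a1, an orphan receptor of the immediate response, rose from 26.4 ± 1.24 to 51.3 ± 3.59 CPM and Ier2 from 93.9 ± 6.35 to 159.6 ± 10.2 CPM. Fos was at 2.02 ± 0.968 and 3.81 ± 0.567 CPM and called higher (adjusted p = 0.0167), a call lost without Nanog-null replicate 1 (0.067), Nanog-null replicate 3 (0.0795) or Esrrb+Nanog replicate 1 (0.0518). Fosl2, of the same family, fell from 7.25 ± 4.86 to 1.56 ± 0.167 CPM, a log2 change of -2.22, and of -1.54 without Nanog-null replicate 2. Without Nanog-null replicate 2, or without Esrrb+Nanog replicate 3, 3 members were lower, as also where 5 CPM was required in 3 libraries. Polycomb genes, of the complexes that silence developmental genes, gave 5 of 18 higher and 4 lower, close to the background. The core subunit Eed rose from 231 ± 20.5 to 401 ± 29.8 CPM, the catalytic Ezh1 and the cofactor Jarid2 fell from 66.4 ± 3.91 to 38.6 ± 2.98 CPM and 1119 ± 73.4 to 745 ± 10.03 CPM, and Ezh2 was at 199 ± 8.28 and 205 ± 3.35 CPM with no call (adjusted p = 0.512).

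Ranked by fold among genes of at least 5 CPM in the higher line, the largest increases outside the lists were in genes of varied function. Pvalb, the calcium buffer parvalbumin, had 4 counts over the Nanog-null libraries and 437 over the Esrrb+Nanog libraries, a ratio of 105 (95% exact interval 40.7 to 387). The model gave a log2 change of 6.62, or 10.21 without Nanog-null replicate 3, which held all of the reference counts. Duox1, a NADPH oxidase that makes hydrogen peroxide, measured 1.11, 1.04 and 1.14 CPM in the Nanog-null line against 47.1, 50.1 and 45.2 CPM with Esrrb and Nanog added (log2 change 5.43 ± 0.12, adjusted p = 2.39e-10), with 3.27 ± 0.321 CPM in the Esrrb line. The rest of the 10 were 4 Zscan4 genes, Inhbb, Mras, Rapgef3 and Klf4.

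The largest decreases fell to nearly no counts. Gbp2, a guanylate-binding GTPase gene that interferon induces, read 6.2, 15.3 and 5.25 CPM in the reference libraries, with no count in the Esrrb+Nanog libraries. It was at least 239-fold lower, taken against a floor of 3 counts over the line. Its neighbour Gbp2b had 534 counts against 1, a ratio of 555. Both were highest in Nanog-null replicate 2, and their fitted log2 changes of -10.92 and -8.66 were -10.30 and -7.93 without it, and -10.54 for Gbp2b without Esrrb+Nanog replicate 3. Reads of these 2 similar genes may be shared between them. Trim67, a ubiquitin ligase gene of the brain, read 8.06, 15.3 and 7.85 CPM in the reference libraries, with 4 counts over the Esrrb+Nanog libraries (a log2 change of -7.59, or -8.81 without Esrrb+Nanog replicate 1). Car4, a membrane carbonic anhydrase gene, fell from 21.2 ± 6.94 to 0.257 ± 0.0807 CPM, Pdzrn4 from 8.53 ± 0.297 to 0.101 ± 0.0588 CPM and Rbbp8nl from 5.33 ± 0.566 to 0.049 ± 0.0182 CPM. Slfn9, a schlafen gene, fell from 9.4 ± 2.13 to 0.108 ± 0.0898 CPM (a log2 change of -6.34, or -7.23 without Esrrb+Nanog replicate 3).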

How the data were processed

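RNA of sorted mouse embryonic stem cells was sequenced after removal of ribosomal RNA, per the labels' protocols. Per the submitters' processing notes, bcl2fastq 2.19.1, STAR 2.5.3a and build mm10 were used. Per the file headers, the deposited table holds 1 column of raw counts for each library and 1 row for each Ensembl gene. How reads were assigned to genes and strands is not given in the sources used here. Of 15 columns of libraries, 9 matched the samples by title and the other 6 were not used here.

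Symbols and positions came from GENCODE M21, which held 52489 of the 52636 gene IDs. In R 4.3.3 with edgeR 4.0.16 and limma 3.58.1, genes were kept by edgeR's default low-count rule, which left 16198, and scaled by the trimmed mean of M values. Line was the only term of a quasi-likelihood model of all 9 libraries. Benjamini-Hochberg adjustment ran over every tested gene, and the threshold was 0.05. Exact permutation of 3 libraries against 3 gives no p under 0.1 for a single gene and was not used. Each standard error is the log2 change over the root of the F statistic. Ratios of low counts carry exact 95% intervals, and a count of 0 was set to a floor of 3; both cover counting error only. The procedure was tested on simulated data.

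The gene lists and the comparison were chosen with earlier results of these data known. The text names Nanog, Esrrb and the sorting markers, in each direction the 10 genes of largest called fold at a mean of at least 5 CPM without overlap (predicted genes left out), and the 5 per direction with the largest called CPM difference. From each list it adds the first member, its 3 members of smallest adjusted p and up to 2 called against the majority. This gave 168 genes, and further genes were named after their values were seen. Some of these genes are not reported here. Alternatives were median-of-ratios factors, DESeq2 1.42.0, scaling by library totals, no low-count filter, a minimum of 5 CPM in 3 libraries, a fit of the 2 lines only, a replicate block, and each library left out in turn. Promoter sequences were those of RefSeq for GRCm38.p6.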

Additional observations from a re-analysis of the deposited data

How the results depend on the processing

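The count of 8466 called autosomal genes stayed within 1.5 times under all 16 alternatives. It was 8439 with median-of-ratios factors, 8536 with library totals alone, 8248 by DESeq2, 9067 without a low-count filter, 6300 at a minimum of 5 CPM in 3 libraries, and 8306 in a fit of the 2 lines only. Leaving out a library gave 7419 (without Esrrb+Nanog replicate 2) to 8758 (without Esrrb replicate 2), with 3619 to 4423 higher and 3653 to 4335 lower. The share of calls that were higher was 50.6%, and 48.7% to 54.1% over the alternatives. Of 221 genes chosen for description 201 were called, 193 of them in every alternative that tested them, and none changed direction while called. The counts of list members are small, and those that moved over 1.5 times with a library left out are given in the text. Chromosome medians moved in 68 of 304 alternative values, so their order carries little weight. Lines share replicate numbers. Over all autosomal genes the deviations of same-numbered Nanog-null and Esrrb+Nanog libraries correlated at 0.0084, 0.073 and -0.018. Those of same-numbered Esrrb and Esrrb+Nanog libraries correlated at 0.16, 0.28 and -0.023. A correlation over all genes does not show whether some genes share an effect by number, so whether the numbers pair the libraries is not known. The replicate block gave 8594 calls, 4339 higher and 4255 lower. Under it Gata6 (log2 change 0.95, adjusted p = 0.000176), Ifitm1, Smad6, T and Zic2, described as not called, were called (the other 4 at 0.0498, 0.0169, 0.0451 and 0.0416), as they were without a low-count filter. Not every library correlated best with its own number. Detection in genes under 1 CPM is limited by depth.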

Other observations

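The differences were spread over all 19 autosomes. Between 51.1% and 57.8% of the tested genes of a chromosome were called, against 54.3% of all autosomal genes, and median log2 changes ran from -0.059 on chromosome 10 to 0.079 on chromosome 18. Protein-coding genes gave 28.8% higher and 29.2% lower. Antisense RNAs gave 25.9% higher and 10.4% lower of 328, and long intergenic RNAs 27.6% higher and 20.3% lower of 439. The sources used here do not say whether strand was counted, and reads of an antisense RNA and its partner gene cannot be told apart. Of 62 tested unprocessed pseudogenes 30 did not reach the low-count cutoff in all 3 Nanog-null libraries and passed the filter with the help of other lines, so no direction is read from them as a class. They include Zscan4a, which the annotation lists as a pseudogene, from 0.327 ± 0.0931 to 17.2 ± 6.82 CPM. They also include the predicted genes Gm5541 (chromosome 3, 93628640 to 93629752) and Gm9113 (93873369 to 93874386), from 0.0309 ± 0.0535 to 1.13 ± 0.513 CPM and 0.0111 ± 0.0193 to 0.871 ± 0.371 CPM. The fitted log2 change of Gm5541 was 5.23, and 7.99 without Nanog-null replicate 1 and 4.598 without Nanog-null replicate 3. That of Gm9113 was 5.64, and 7.56 without Nanog-null replicate 3.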
